A study of Sus scrofa with 17 samples.

Results

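The iron genes described here are 9 genes that move iron into muscle cells, store it, release it or sense it: TFRC, STEAP3, SLC11A2, SLC39A14, FTH1, NCOA4, SLC40A1, IREB2 and ACO1. They were chosen by name, though with earlier results of these data known, and they are 9 of the 31908 genes in the count table. All 9 had enough reads to be tested, among 14203 genes that passed the filter on low counts. RNA came from the longissimus muscle of male Large White × Duroc piglets, which entered the trial at 28 days of age, adapted for 5 days and were fed for 2 weeks. The control diet (6 libraries) was based on wheat, maize and soybean meal. The UL diet (6 libraries) held 7% of the green seaweed Ulva lactuca, and the ULU diet (5 libraries) held the same seaweed with 0.01% ulvan lyase, a carbohydrase that breaks down ulvan from the algal cell wall. All piglets were pair-fed, and each library came from 1 piglet.

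Most iron reaches a cell bound to transferrin. The transferrin receptor TFRC takes the complex into endosomes, where STEAP3 reduces the iron and SLC11A2 (DMT1) carries it into the cytosol, while SLC39A14 (ZIP14) takes up iron that is not bound to transferrin, along with zinc and manganese. FTH1 is the ferritin heavy chain, which oxidizes iron for storage, NCOA4 hands ferritin to the lysosome so that its iron is released, and SLC40A1 (ferroportin) is the exporter. The iron regulatory proteins, ACO1 (IRP1) and IREB2 (IRP2), bind iron-responsive elements in mRNAs when iron is scarce, which stabilizes the TFRC mRNA and holds back translation of ferritin and ferroportin. Muscle holds much of its iron in myoglobin and in the mitochondria, and seaweed is a feed rich in minerals, so the question here was whether the mRNAs of iron handling differed between the diets.

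The libraries held from 16137365 to 26546810 reads assigned to genes. Levels are given as CPM, the reads of a gene scaled to the total of its library with edgeR's TMM factors. The skeletal muscle markers ACTA1 and CKM had at least 1046505 and 273354 reads in every library. The mitochondrial share of counted reads averaged 14.8% ± 0.697 (SD, n = 6) for control, 11.6% ± 2.11 (SD, n = 6) for UL and 10.2% ± 1.47 (SD, n = 5) for ULU, and control and ULU libraries did not overlap (two-sided exact permutation test, p = 0.00433, adjusted p = 0.129 over 33 such tests). The summed CPM of 6 skeletal muscle markers ranged from 119600 to 186500 in control and from 166400 to 306900 in ULU (two-sided exact permutation test, p = 0.0173, adjusted p = 0.129). These measures moved with the diets, and the log2(fold change) of each member was also fitted with the mitochondrial share as a covariate. No batch is labelled, and one that coincided with diet cannot be told apart from it.

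Ferritin heavy chain stood far above the other members in every library. Per kilobase of exon, FTH1 had 1008 CPM on average over the 17 libraries, with a range from 758 to 1374. NCOA4 followed with 35.9 CPM per kilobase, TFRC with 21.8 and IREB2 with 14.7. The ranges of these neighbours overlapped, from 28.5 to 43.1 for NCOA4, from 10.7 to 34.8 for TFRC and from 10.97 to 19.2 for IREB2. ACO1 reached at most 10.3, below every IREB2 value. ACO1 (8.08), SLC40A1 (7.96) and SLC39A14 (6.02) lay close together on the same scale, with overlapping ranges. SLC11A2 had 2.43 CPM per kilobase and did not overlap with SLC39A14 above it or with STEAP3 below it. STEAP3 was the scarcest member, with 0.549 CPM per kilobase and between 16 and 101 reads per library, so its values carry the largest counting error. This scale divides by the exonic bases of each gene model, which ran from 866 for FTH1 to 15055 for SLC11A2. ACO1 had 3758 and SLC40A1 7234. Of these bases, 99.9% lie within the RefSeq span for ACO1, but 44.0% for SLC40A1 and 42.2% for TFRC. The order of genes close to each other thus depends on the gene models.

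**Figure D1:**
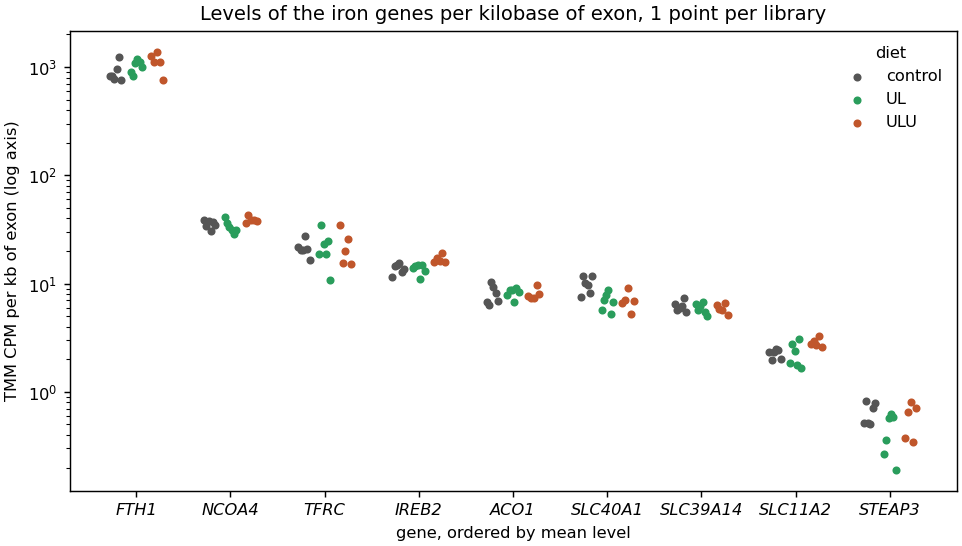
Level of each iron gene in CPM per kilobase of exon (vertical log axis) in every library, with genes ordered by their mean and points coloured by diet. FTH1 lies between 758 and 1374, far above the rest, STEAP3 lies lowest, and ACO1, SLC40A1 and SLC39A14 overlap.

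The members also differed in how much they varied between piglets. The highest library exceeded the lowest by 4.35 times for STEAP3 and by 3.24 times for TFRC. SLC40A1 spanned 2.28 times, SLC11A2 1.97 times, FTH1 1.81 times and IREB2 1.75 times. The narrowest spans over all 17 libraries were those of ACO1 (1.62 times), NCOA4 (1.51 times) and SLC39A14 (1.46 times).

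No member passed an adjusted p of 0.05 in any comparison by edgeR's quasi-likelihood test and Benjamini-Hochberg adjustment over the 14203 genes. In UL vs control, 0 of 9 members were called against 0.0% of all genes, in ULU vs control 0 of 9 against 2.98%, and in ULU vs UL 0 of 9 against 0.0352%. At an unadjusted p under 0.05, the count was 1 of 9 in UL vs control (10.8% of all genes), 4 of 9 in ULU vs control (18.9%) and 3 of 9 in ULU vs UL (10.8%). DESeq2's Wald test on all libraries called SLC40A1 in ULU vs control (adjusted p = 0.0448), 1 of 9 members where it called 9.08% of all genes to which it gave an adjusted p. In ULU vs UL it called IREB2 (adjusted p = 0.048), 1 of the 7 members with an adjusted p, beside 8.92% of all genes, and in UL vs control 0 of 8, beside 1.65%. On the libraries of the 2 diets alone, it called SLC11A2 in ULU vs control (adjusted p = 0.0351), 1 of 9 beside 7.31% of all genes, and no member in the other comparisons. These shares of all genes are close to 1 of 9 or 1 of 7 members, so the DESeq2 calls do not set the members apart. The median log2(fold change) of the members was -0.01 in UL vs control, 0.07 in ULU vs control and 0.13 in ULU vs UL, where the medians over all genes tested were -0.0027, -0.03 and -0.02. A p above the threshold does not show that a gene was at the same level on both diets, so the 95% confidence interval of each difference is given below.

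**Figure D2:**
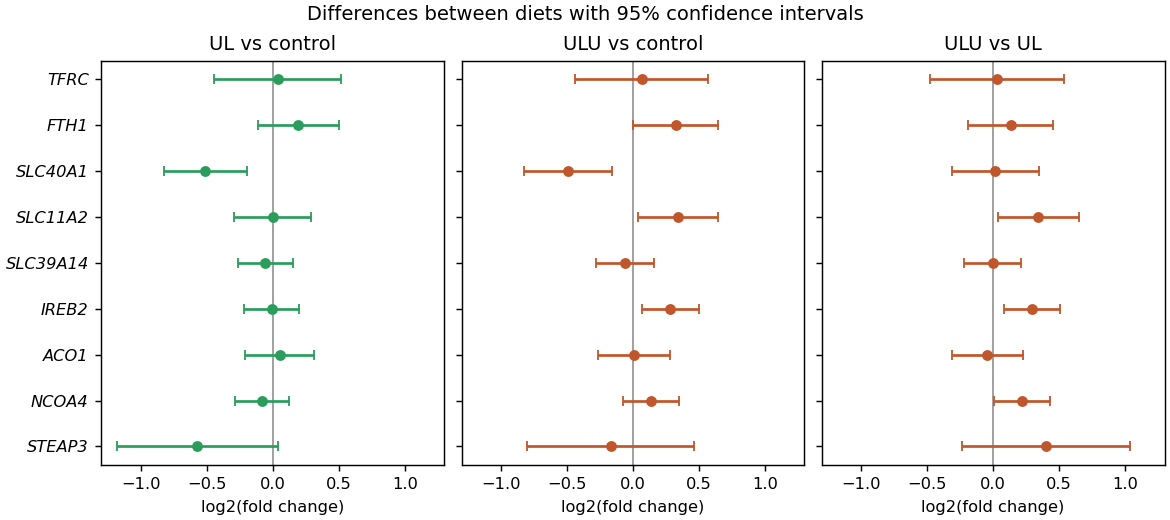
log2(fold change) of the 9 iron genes (horizontal axis) in the 3 comparisons of diets, with points for the edgeR estimates and bars for their 95% confidence intervals. The SLC40A1 interval lies below 0 in both comparisons with control, and the IREB2 and SLC11A2 intervals lie above 0 in both comparisons of ULU.

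Ferroportin (SLC40A1, ENSSSCG00000027157, chromosome 15, 94140725 to 94168210 of Sscrofa11.1, minus strand) had the lowest p of the members in both comparisons with control. Its lowest, median and highest values were 53.9, 71.7 and 85.6 CPM in the control piglets and 37.8, 50.4 and 62.8 CPM in the UL piglets. The ULU piglets had 37.6, 48.0, 49.8, 50.7 and 66.4 CPM. In each seaweed group 4 piglets lay below every control piglet, and the others overlapped with control. The level in UL was 0.701 of control (95% interval 0.564 to 0.873), on the log2 scale a difference of -0.51 with a standard error of 0.15 (edgeR adjusted p = 0.215). The level in ULU was 0.709 of control (0.563 to 0.893), on the log2 scale a difference of -0.50 with a standard error of 0.16 (edgeR adjusted p = 0.0899). UL and ULU had nearly the same mean, with 49.9 ± 9.27 CPM (SD, n = 6) and 50.5 ± 10.3 CPM (SD, n = 5), and the interval of ULU over UL reached from 0.804 to 1.27. The ULU vs control difference passed the threshold when the ULU library with the highest value, replicate 42, was left out (log2(fold change) -0.61, adjusted p = 0.0449 from edgeR's test). It passed in only 1 of the 17 fits that left out 1 library. The weakest was that without ULU replicate 43 (-0.41, adjusted p = 0.215 from edgeR's test). With the mitochondrial share as a covariate, the log2(fold change) was -0.48 in UL vs control (adjusted p = 0.463 from edgeR's test) and -0.45 in ULU vs control (adjusted p = 0.544). Macrophages express much ferroportin, and the summed CPM of 8 macrophage markers ranged from 128 to 281 in control, from 117 to 251 in UL and from 66.3 to 292 in ULU. Of these, MARCO was near 0 (0 to 12 reads), and the other 7 had lower means in ULU than in control. In bulk muscle, fewer cells of a type and less RNA per cell cannot be told apart, and the part of macrophages in the SLC40A1 values was not tested. Of the exonic bases of this gene model, 44.0% lie within the RefSeq span of SLC40A1.

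Other genes followed SLC40A1 closely from piglet to piglet, in the same or the opposite direction. Among 11642 named genes, those most like SLC40A1 in their deviations from the diet means over the 17 libraries were MYOF, a membrane repair protein (Pearson r = 0.875), CTNNA1, a catenin of cell junctions (r = 0.872), and SRGAP2 (r = 0.870). Those most unlike it were NFKBIB, an inhibitor of NF-kB (r = -0.904), TMOD4, a muscle protein that caps actin filaments (r = -0.864), and PKM, the pyruvate kinase of glycolysis (r = -0.854). All of these values share the same libraries and the same scaling factors, and they are a description only.

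The transferrin receptor had similar means on the 3 diets, with piglets spread widely around them. TFRC (ENSSSCG00000011848, chromosome 13, 133970594 to 134000278, plus strand) had a lowest, median and highest value of 93.8, 116 and 155 CPM in control and of 60.6, 118 and 197 CPM in UL. The ULU piglets had 86.2, 87.8, 114, 146 and 195.5 CPM. The lowest and the highest library of all 17 were both UL libraries. The coefficient of variation was 16.6% in control, 36.8% in UL and 36.4% in ULU. The estimated level relative to control was 1.03 in UL (95% interval 0.735 to 1.43, adjusted p = 0.974 from edgeR's test) and 1.05 in ULU (0.738 to 1.49, adjusted p = 0.909), so the data leave room for a sizeable difference in either direction. Of the exonic bases, 42.2% lie within the RefSeq span of TFRC. The genes most like TFRC were NOPCHAP1 (r = 0.789), POLR3F, a subunit of RNA polymerase III (r = 0.789), and SDF2 (r = 0.769). Among the most unlike were TRIM2 (r = -0.781) and ADGRL4, a receptor of endothelial cells (r = -0.764).

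STEAP3, the endosomal reductase, had the widest intervals. It (ENSSSCG00000029304, chromosome 15, 24736594 to 24787871, plus strand) ranged from 2.78 to 4.53 CPM in control, with a median of 3.34, and from 1.04 to 3.41 CPM in UL, with a median of 2.54. The ULU values were 1.87, 2.05, 3.57, 3.84 and 4.38 CPM. In UL, 3 of 6 piglets lay below every control piglet. The level in UL was 0.673 of control (95% interval 0.441 to 1.03), on the log2 scale a difference of -0.57 with a standard error of 0.29 (edgeR adjusted p = 0.494), and in ULU it was 0.890 of control (0.574 to 1.38, adjusted p = 0.803).

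SLC11A2, the endosomal iron carrier, was highest in the ULU piglets. It (ENSSSCG00000034039, unplaced scaffold AEMK02000258.1, 341446 to 446461, plus strand) had a lowest, median and highest value of 29.6, 35.3 and 37.2 CPM in control and of 25.0, 31.9 and 46.4 CPM in UL. The ULU piglets had 38.9, 40.5, 41.9, 44.3 and 49.2 CPM. All control piglets lay below the lowest ULU piglet, while the UL piglets were spread on both sides of both. The level in ULU was 1.27 times that of control (95% interval 1.02 to 1.56), on the log2 scale a difference of 0.34 with a standard error of 0.15 (edgeR adjusted p = 0.21), and 1.27 times that of UL (1.03 to 1.57, adjusted p = 0.413). UL and control had means of 33.9 CPM each, with an interval of the ratio from 0.815 to 1.22. No RefSeq span of SLC11A2 was found on this scaffold, so the 15055 exonic bases of this gene model could not be compared with RefSeq. Its span overlaps 2 other gene models, which share 0 exonic bases with it.

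SLC39A14, the carrier of iron not bound to transferrin, had the narrowest span between its lowest and highest library over all diets, while the coefficient of variation within control and within ULU was lower for NCOA4 (8.86% and 6.21%) than for SLC39A14 (10.9% and 9.83%). It (ENSSSCG00000032622, chromosome 14, 6639206 to 6803670, plus strand) averaged 64.4 ± 6.99 CPM (SD, n = 6) in control piglets, 61.9 ± 6.84 CPM (SD, n = 6) in UL piglets and 61.8 ± 6.08 CPM (SD, n = 5) in ULU piglets. The ratio to control was 0.961 in UL (95% interval 0.833 to 1.11) and 0.959 in ULU (0.825 to 1.11). Without TMM factors, as plain CPM of counted reads, its values were 62.8 to 72.1 CPM in control and 52.8 to 61.3 CPM in ULU and did not overlap. This gene model runs on into the next gene: 24.9% of its exonic bases lie within the RefSeq span of PPP3CC, a calcineurin subunit, so its reads cannot be assigned to SLC39A14 alone.

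Ferritin heavy chain mRNA was somewhat higher in the seaweed groups, with overlap. FTH1 (ENSSSCG00000014540, chromosome 2, 9535148 to 9537977, plus strand) had a lowest, median and highest value of 657, 720 and 1066 CPM in control and of 717, 912 and 1030.0 CPM in UL. The ULU piglets had 656, 957, 970, 1088 and 1190.0 CPM. One ULU piglet, replicate 44, had the lowest value of all 17, and 2 others lay above every control piglet. The level in ULU was 1.25 times that of control (95% interval 1.002 to 1.57), on the log2 scale a difference of 0.32 with a standard error of 0.15 (edgeR adjusted p = 0.261). The level in UL was 1.14 times that of control (0.923 to 1.41, adjusted p = 0.689). The ratio of TFRC to FTH1 mRNA per kilobase, within a library, averaged 0.0242 ± 0.00427 (SD, n = 6) for control, 0.0221 ± 0.0107 (SD, n = 6) for UL and 0.0199 ± 0.00579 (SD, n = 5) in ULU, with overlap between all diets. Ferritin genes have many near-identical processed copies, and the counting command set no option for reads placed at several sites, so reads that fit a copy equally well may be missing from FTH1. The genes most like FTH1 were DDA1 (r = 0.924), MVB12B (r = 0.831) and MRPL36, a mitochondrial ribosomal protein (r = 0.816). The most unlike were KIF11, a mitotic kinesin (r = -0.878), PRTFDC1 (r = -0.858) and SMC4, a condensin subunit (r = -0.840).

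NCOA4, which delivers ferritin for breakdown, differed little. It (ENSSSCG00000010399, chromosome 14, 90503746 to 90536009, minus strand) averaged 205 ± 18.2 CPM (SD, n = 6) in control piglets, 193 ± 26.1 CPM (SD, n = 6) in UL piglets and 225 ± 13.97 CPM (SD, n = 5) in ULU piglets. The ULU level was 1.10 times that of control (95% interval 0.948 to 1.27, adjusted p = 0.507 from edgeR's test) and 1.16 times that of UL (1.005 to 1.35, adjusted p = 0.448), and 1 ULU piglet lay above all UL piglets. As plain CPM, the ULU mean was 210 ± 27.4 (SD, n = 5) and the control mean 217 ± 18.5 (SD, n = 6), so the order of ULU and control turned with the scaling. Of the 5768 exonic bases of NCOA4, 1891 are shared with other gene models, and the command set no option to count reads there.

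Of the iron sensors, IREB2 mRNA stood higher in ULU and ACO1 mRNA did not. Levels of mRNA do not report the amount or activity of either protein. IREB2 (ENSSSCG00000001756, chromosome 7, 47479629 to 47529227, minus strand) had a lowest, median and highest value of 57.6, 71.1 and 77.3 CPM in control and of 55.2, 71.6 and 75.2 CPM in UL. The ULU piglets had 79.5, 79.7, 80.5, 86.5 and 96.7 CPM. All 5 ULU piglets lay above all control and all UL piglets. The level in ULU was 1.22 times that of control (95% interval 1.05 to 1.41), on the log2 scale a difference of 0.28 with a standard error of 0.10 (edgeR adjusted p = 0.129). It was 1.23 times that of UL (1.06 to 1.42), on the log2 scale a difference of 0.29 with a standard error of 0.10 (edgeR adjusted p = 0.303). With the mitochondrial share as a covariate, the ULU vs control log2(fold change) was 0.33 and did not pass the threshold. IREB2 in UL was 0.993 of control, with an interval from 0.861 to 1.14.

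ACO1 (ENSSSCG00000023807, chromosome 10, 33937833 to 34001900, minus strand) averaged 30.0 ± 5.86 CPM (SD, n = 6) in control piglets, 31.0 ± 3.29 CPM (SD, n = 6) in UL piglets and 30.1 ± 3.73 CPM (SD, n = 5) in ULU piglets. Its ratio to control was 1.04 in UL (95% interval 0.865 to 1.24) and 1.005 in ULU (0.833 to 1.21). ACO1 encodes the cytosolic aconitase, which turns into an RNA-binding protein when it loses its iron-sulphur cluster, a switch that mRNA levels do not report.

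Counted over all members, the groups did not overlap for 2 of 9 genes in ULU vs control (SLC11A2 and IREB2), where 3.39% of all genes tested did not overlap, for 1 of 9 in ULU vs UL (IREB2, 1.75% of all genes) and for 0 of 9 in UL vs control (0.852%). These separations depended on the TMM factors. In plain CPM, IREB2 ranged from 73.7 to 83.2 in ULU and from 54.3 to 88.6 in control, and SLC11A2 from 37.6 to 42.3 in ULU and from 33.5 to 40.1 in control, so both overlapped. On that scale, 1 of 9 members did not overlap in ULU vs control (SLC39A14, lower in ULU, 2.96% of all genes), 0 of 9 in ULU vs UL (1.78%) and 0 of 9 in UL vs control (0.669%). The ULU log2(fold change) against control was still above 0 for IREB2 and SLC11A2 in all 17 fits that left out 1 library and in all 8 other alternatives, from 0.23 to 0.33 for IREB2 and from 0.29 to 0.42 for SLC11A2.

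**Figure D3:**
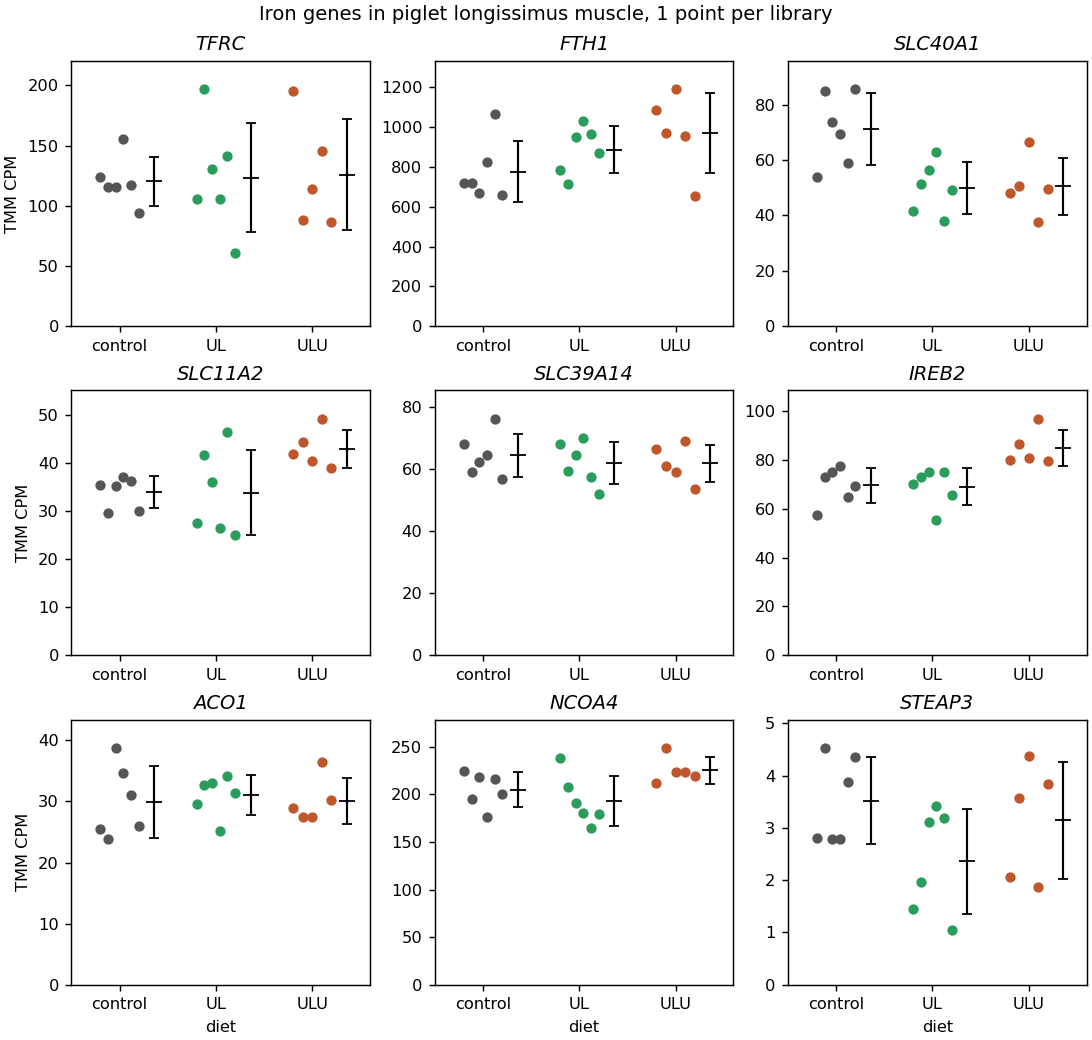
CPM after TMM scaling (vertical axes, from 0) of the 9 iron genes in every control, UL and ULU library, with 1 point per library and the mean ± SD beside each group. In ULU, SLC11A2 (38.9 to 49.2 CPM) and IREB2 (79.5 to 96.7 CPM) lie above all control piglets, and SLC40A1 is lower on average in both seaweed groups.

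Members were also compared over piglets, taking each library's log2 CPM minus its diet mean, in 36 pairs with permutation tests. TFRC and SLC11A2, which act in the same endosome, went together most closely (n = 17, Pearson r = 0.678, permutation p = 0.00729, adjusted p = 0.0887, Spearman rho = 0.770, permutation p = 0.001, adjusted p = 0.036). Within control, UL and ULU the r was 0.709, 0.823 and 0.320, and without UL replicates 28 and 32, the libraries farthest from the TFRC median, it was 0.478. SLC11A2 also went with ACO1 (r = 0.557, permutation p = 0.00543, adjusted p = 0.0887, rho = 0.664, permutation p = 0.00263, adjusted p = 0.0473), with an r of 0.681, 0.718 and 0.672 within the diets and of 0.651 without the 2 farthest libraries. The sensors IREB2 and ACO1 had an r of 0.656 (permutation p = 0.00739, adjusted p = 0.0887) and a rho of 0.654 (permutation p = 0.00995, adjusted p = 0.119), and an r of 0.507 without the 2 farthest libraries. By Pearson r, 0 of the 36 pairs had an adjusted permutation p under 0.05, and by Spearman rho the first 2 pairs named did. SLC40A1 had a negative r with 6 of the other 8 members, down to -0.467 with SLC11A2 (adjusted permutation p = 0.379), and its highest r was with STEAP3 (0.489, adjusted permutation p = 0.379). The mRNAs of TFRC and FTH1 had an r of 0.183 (adjusted permutation p = 0.882), which does not report iron status.

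**Figure D4:**
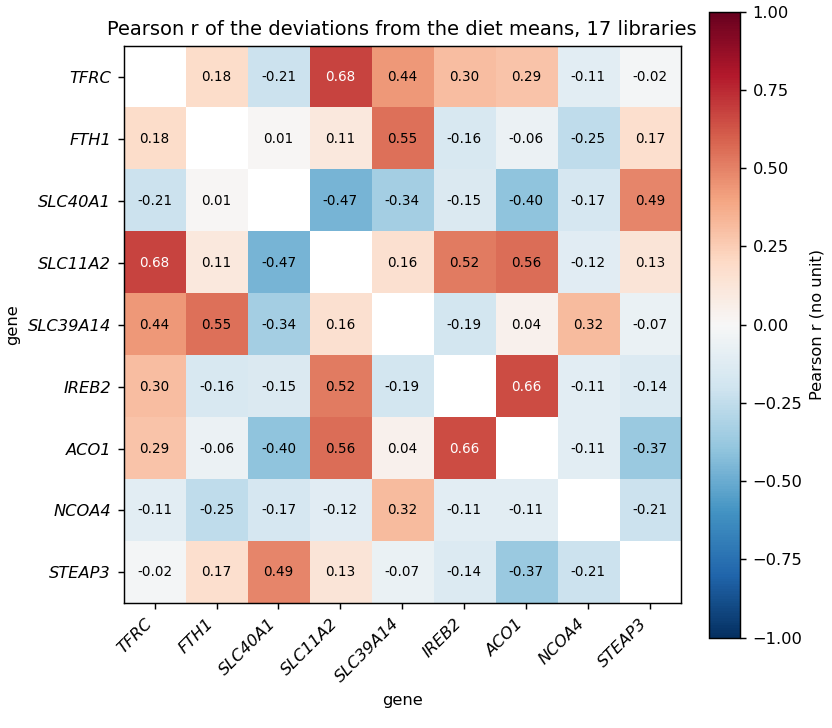
Pearson r of log2 CPM, each library minus its diet mean, for each pair of the 9 iron genes over 17 libraries, with the colour scale from -1 to 1. The highest values are those of TFRC with SLC11A2 (0.678) and IREB2 with ACO1 (0.656), and the lowest is that of SLC40A1 with SLC11A2 (-0.467).

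The other genes of iron handling were read from 7 lists of 70 genes, of which 67 had a row and 61 were tested. In ULU vs control, 5 of 61 passed the adjusted p of 0.05, all of them higher in ULU, beside 2.98% of all genes. None passed in UL vs control or in ULU vs UL by edgeR's quasi-likelihood test, where 6 and 8 of the 61 had an unadjusted p under 0.05, beside 10.8% of all genes in both. At an unadjusted p under 0.05 of the same test in ULU vs control, 11 of the 61 were higher and 2 lower, beside 18.9% of all genes. DESeq2 on the libraries of the 2 diets called 1 of 51 with an adjusted p in UL vs control, beside 1.48% of all genes, and 4 of 37 in ULU vs UL, beside 3.84%. Of the 5 that rose in ULU, 4 are described here. They are SLC25A37 and ISCU of the mitochondrial list (2 of 16 tested), ALAS1 of haem synthesis (1 of 9) and HJV of the hepcidin axis (1 of 5).

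SLC25A37 is mitoferrin-1, which carries iron into mitochondria (ENSSSCG00000033037, chromosome 14, 7665007 to 7706768). It had 3.06, 4.15 and 6.11 CPM as lowest, median and highest in control, and the ULU piglets had 6.02, 7.10, 7.54, 8.43 and 9.03 CPM. It rose by a factor of 1.75 (95% interval 1.33 to 2.30, log2 difference 0.81 with a standard error of 0.19, edgeR adjusted p = 0.0309), and 1 ULU piglet overlapped with control. The other mitoferrin of the list, SLC25A28, had a log2(fold change) of -0.14 in ULU vs control (adjusted p = 0.783 from edgeR's test). ISCU, the scaffold on which iron-sulphur clusters are built (ENSSSCG00000023380, chromosome 14, 42215608 to 42222711), had 85.9, 93.2 and 140 CPM in control and 124, 149, 154, 162 and 168 CPM in ULU. It rose by a factor of 1.49 (1.25 to 1.77, log2 difference 0.57 with a standard error of 0.12, edgeR adjusted p = 0.0172). The UL means of SLC25A37 and ISCU lay between control and ULU, with log2(fold change) of 0.58 and 0.37 against control and an adjusted p of 0.247 for each from edgeR's test.

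ALAS1, the first enzyme of haem synthesis outside red cells (ENSSSCG00000011437, chromosome 13, 34333113 to 34347590), had 40.8, 45.2 and 48.2 CPM in control, 49.3, 55.3 and 62.1 CPM in UL and 49.7, 52.8, 58.1, 63.0 and 69.9 CPM in ULU. Neither seaweed group overlapped with control in TMM CPM, though both did in plain CPM. It rose in ULU by a factor of 1.32 (95% interval 1.14 to 1.52, log2 difference 0.40 with a standard error of 0.10, edgeR adjusted p = 0.0391), and UL was 1.25 times control (1.09 to 1.43, adjusted p = 0.223). ALAS2, the form of red cells, had between 8 and 64 reads per library.

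HJV, or hemojuvelin, is a membrane co-receptor for bone morphogenetic proteins that is made in liver and muscle (ENSSSCG00000035429, chromosome 4, 99328053 to 99332647). It had 277, 337 and 389 CPM in control and 330, 464, 504, 518 and 525 CPM in ULU, where 4 of 5 piglets lay above all control piglets. It rose by a factor of 1.42 (1.18 to 1.69, log2 difference 0.50 with a standard error of 0.12, edgeR adjusted p = 0.0359).

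**Figure D5:**
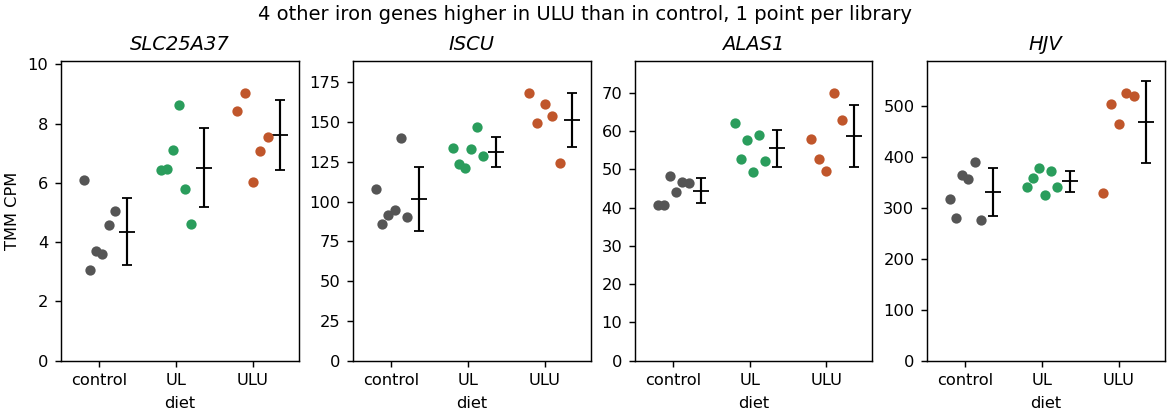
CPM after TMM scaling (vertical axes, from 0) of 4 other iron genes that passed the test in ULU vs control, with 1 point per library and the mean ± SD beside each group. ISCU runs from 85.9 to 140 CPM in control and from 124 to 168 CPM in ULU, and HJV has 1 ULU piglet at 330 CPM within the control range.

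The number of these calls depended on the model and on single libraries. It was 0 with the mitochondrial share as a covariate, where 0.0845% of all genes were called, and 0 with edgeR on the libraries of the 2 diets alone, where 0.821% were. It was 3 without the filter on low counts (0.887% of all genes) and 7 of 57 with DESeq2 on all libraries and on the 2 diets (9.08% and 7.31%). Leaving out 1 library gave between 1 (without control replicate 22) and 8 calls (without control replicate 25), and ISCU was called in all 17 of these fits. It was 2 or 3 without any one of the other control libraries or without ULU replicate 40, 41, 43 or 44. With the mitochondrial share as a covariate, the log2(fold change) was 0.51 for ISCU, 0.47 for SLC25A37, 0.71 for HJV and 0.37 for ALAS1. The summed CPM of 5 slow fibre markers ranged from 2431 to 5709 in control and from 4356 to 9840 in ULU (two-sided exact permutation test, p = 0.0346, adjusted p = 0.163). That of 4 fast fibre markers ranged from 32950.0 to 56710.0 in control and from 51050.0 to 74850.0 in ULU (two-sided exact permutation test, p = 0.013, adjusted p = 0.129). The mean marker sums of both fibre types were thus higher in ULU than in control, and the mean mitochondrial share was lower. Whether these measures went with these genes from piglet to piglet was not tested, nor was their part in the calls.

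In 3 further lists, no gene passed the adjusted p. Among 10 uptake and reduction partners with a row, of which 9 were tested, CYBRD1, an iron reductase of the membrane, was highest per kilobase of exon with 9.15 CPM, and TFR2, the second transferrin receptor, was lowest with 0.0594 and at most 17 reads, too few to be tested. Among 10 genes of storage, chaperones and haem breakdown, of which 9 were tested, FTL, the ferritin light chain, was highest with 185 CPM per kilobase, and mitochondrial ferritin FTMT was lowest with 0.00881 and at most 2 reads, too few to be tested. FTL was 1494 bases long in exons, of which 376 are shared with another gene model. Among the 8 genes of cytosolic iron-sulphur assembly, CIAO2B was highest (54.3 CPM per kilobase) and CIAO3 lowest (0.823). Between ULU and control, the median log2(fold change) was -0.06 for uptake partners, 0.12 for storage, 0.20 for the mitochondrial list, 0.23 for cytosolic iron-sulphur assembly, 0.11 for haem synthesis, 0.13 for the hepcidin axis and 0.07 for 5 other mRNAs with an iron-responsive element, beside -0.03 over all genes tested. HAMP, the gene of the hormone hepcidin, which is made in liver, had at most 9 reads in any library.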

How the data were processed

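Raw read counts per gene of Ensembl release 104 were deposited by the authors, from featureCounts after fastp trimming and HISAT2 alignment to Sscrofa11.1. The file header names featureCounts 2.0.1, whereas the labels name Subread 1.5.1, and no strand option was set. The authors also deposited their mean count per gene, a signal column that was not tested. All 17 count columns were used. Gene names came from Ensembl identifiers (15029 genes) or, for 1392 genes including FTH1 and SLC25A37, from RefSeq position on the same assembly, where at least 50% of both overlapped.

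Counts were tested in 1 model of 17 libraries with edgeR 4.0.16 (TMM, filterByExpr, quasi-likelihood F test, Benjamini-Hochberg adjustment) in R 4.3.3, with DESeq2 1.42.0 as an alternative. Standard errors were the log2(fold change) over the square root of F. log2 CPM used a prior count of 2. Correlations used 100000 permutations within diets, adjusted over 36 pairs. The test scripts were checked on simulated counts for the 3 comparisons, with edgeR on all 17 libraries and DESeq2 on the libraries of the 2 diets. Of the calls there, 3.38% to 5.48% were false with edgeR and 12.2% to 17.6% with DESeq2. Of genes changed by a log2 of 1 in size, edgeR called 46% to 57% and DESeq2 56% to 64%. The simulated spread came from edgeR's own estimates, so the shares of edgeR and DESeq2 are not like for like. DESeq2 on all libraries was not simulated. The p-values of edgeR and DESeq2 weigh a difference between diets against the spread between these piglets. Within a diet, no pair of libraries had the same counts within sampling noise. Members, lists and alternatives were chosen with earlier results of these data known. From each list the genes past the threshold are named, at most 4, or the highest and lowest per kilobase where none passed. SLC25A28, ALAS2 and HAMP are named in addition. For TFRC, FTH1 and SLC40A1, the 3 most like and 3 most unlike genes are named. Some items that these rules name are not reported here. No sequences are printed.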

Additional observations from a re-analysis of the deposited data

How the results depend on the processing

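No paired analysis was possible because the labels do not say which piglets of different diets were matched in pair-feeding. The number of members called in ULU vs control was 1 with DESeq2 on all libraries and 1 with DESeq2 on the libraries of the 2 diets, and ranged from 0 to 1 when 1 library was left out. In ULU vs UL it was 1 with DESeq2 on all libraries. DESeq2 called 9.08%, 7.31% and 8.92% of all genes with an adjusted p in these fits, close to 1 of 9 and 1 of 7 members. Under all other alternatives, and in UL vs control, it was 0. Of 459 fits of a member without 1 library, 37 turned the direction, and of 216 other fits, 15 did, all for differences whose main log2(fold change) was under 0.07 in size. With the mitochondrial share as a covariate, log2(fold change) turned to -0.15 for TFRC in UL vs control, -0.23 in ULU vs control and -0.084 in ULU vs UL, and to 0.049 for SLC11A2 and 0.017 for IREB2 in UL vs control. With upper quartile factors it turned to 0.0096 for SLC11A2 in UL vs control, -0.010 for ACO1 in ULU vs control, and -0.0037 for TFRC and -0.013 for SLC40A1 in ULU vs UL. Without the filter on low counts, SLC11A2 in UL vs control was at 0.003. SLC39A14 in ULU vs UL turned to 0.0096 and 0.013 with DESeq2 on all libraries and on 2 diets, 0.0076 with RLE factors, 0.013 without the filter and 0.0094 without mitochondrial genes. Without 1 library, the ranges were -0.14 to 0.18 (TFRC), -0.11 to 0.072 (SLC11A2), -0.059 to 0.043 (IREB2) and -0.0025 to 0.14 (ACO1) in UL vs control, -0.15 to 0.18 (TFRC) and -0.071 to 0.094 (ACO1) in ULU vs control, and -0.19 to 0.21 (TFRC), -0.10 to 0.11 (SLC40A1) and -0.048 to 0.044 (SLC39A14) in ULU vs UL. The cause was not tested. The depth limits STEAP3 most, with 16 reads in its lowest library. The same alternatives were applied to the other iron genes after the data had been seen.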
